A study of Mus musculus with 16 samples.

Results

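The chromatin described here is a 270 kb stretch of mouse chromosome 19, from 40.03 to 40.3 Mb in the mm9 genome build, that holds the genes Cyp2c37, Cyp2c54, Cyp2c50 and Cyp2c70. DNase-seq, in which DNase I frees short fragments from open chromatin for sequencing, had been carried out on livers of mice given TCPOBOP or vehicle. Peaks called in the 16 pools of livers were merged wherever they overlapped by at least 1 bp, and every merged region that overlapped the window was kept. That gave 48 regions of the 61240 in the genome. They are numbered 1 to 48 along the chromosome. The window was chosen by position, not by signal, but with earlier results of these data known.

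The pools formed 8 groups of 2. Male or female CD-1 mice, received at 7 weeks of age, were injected once in the abdomen with 3 mg/kg TCPOBOP or with vehicle alone, which was 1% DMSO in corn oil. Livers were taken 3 h or 27 h later, and nuclei from 3 to 5 mice went into each pool. Each combination of sex and time was an experiment of its own with 2 TCPOBOP and 2 vehicle pools, so a difference between sexes or times cannot be told apart from one between experiments. The strain is outbred, and whole liver was digested, so hepatocytes and other liver cells were measured together. The lists name no genes, and the labelled tissue could not be checked against marker genes here.

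TCPOBOP is a synthetic ligand that activates mouse CAR, the constitutive androstane receptor. CAR binds DNA together with RXR and drives drug-metabolising genes in hepatocytes. The Cyp2c genes encode cytochrome P450 enzymes of the endoplasmic reticulum. In the mouse, Cyp2c37, Cyp2c50 and Cyp2c54 oxidise arachidonic and linoleic acid as well as drugs, and Cyp2c37 is known to be induced by CAR activators. Cyp2c70 hydroxylates bile acids to the muricholic acids that set mouse bile apart from human bile. The genes lie in the order Cyp2c37, Cyp2c54, Cyp2c50, Cyp2c70 along the chromosome in the RefSeq annotation. That annotation is of another build (GRCm38), so no region is put at a promoter or inside a gene here.

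RefSeq promoter sequences (GRCm38.p6, 250 bases before to 50 after the start) were at hand for 3 of the 4 genes and are shown because nuclear receptor hexamers were searched for in them and because the family's members resemble each other. Reads had been kept only where they mapped uniquely, so stretches identical between the genes are not measured. Capitals mark a match to the hexamers AGGTCA or AGTTCA on either strand.
Cyp2c37 (chr19:39992174-39992473, plus strand): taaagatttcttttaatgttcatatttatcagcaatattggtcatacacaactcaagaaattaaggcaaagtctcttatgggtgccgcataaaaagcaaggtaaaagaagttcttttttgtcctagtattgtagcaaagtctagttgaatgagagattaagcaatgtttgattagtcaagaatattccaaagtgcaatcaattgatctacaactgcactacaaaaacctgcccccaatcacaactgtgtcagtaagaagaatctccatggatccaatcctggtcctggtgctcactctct
Cyp2c50 (chr19:40089429-40089728, plus strand): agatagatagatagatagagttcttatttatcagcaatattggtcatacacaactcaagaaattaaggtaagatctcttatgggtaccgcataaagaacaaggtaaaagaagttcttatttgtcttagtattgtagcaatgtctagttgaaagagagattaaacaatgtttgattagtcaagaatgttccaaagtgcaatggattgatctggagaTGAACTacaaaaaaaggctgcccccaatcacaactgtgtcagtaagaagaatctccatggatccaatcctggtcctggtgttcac
Cyp2c70 (chr19:40187237-40187536, minus strand): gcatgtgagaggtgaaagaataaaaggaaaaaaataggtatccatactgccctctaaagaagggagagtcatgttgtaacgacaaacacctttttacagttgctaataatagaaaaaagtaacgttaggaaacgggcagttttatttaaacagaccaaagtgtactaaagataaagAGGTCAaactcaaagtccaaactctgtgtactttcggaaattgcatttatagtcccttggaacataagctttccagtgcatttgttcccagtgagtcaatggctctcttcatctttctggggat

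In a global alignment the Cyp2c37 and Cyp2c50 promoters were 86.6% identical, while Cyp2c70 was 50.6% identical to Cyp2c37 and 50.7% to Cyp2c50. The hexamer AGGTCA stood 74 bases before the start of Cyp2c70, and AGTTCA, on the opposite strand, 35 bases before the start of Cyp2c50. Of all 32851 RefSeq promoters of this length, 16.3% held AGGTCA and 14% AGTTCA, so these matches are common. No match in these 3 windows was found on either strand to a pair of AGNTCA hexamers with 4 free bases between them (DR4, in 0.125% of promoters) or with 1 (DR1, 0.219%). None was found to GTTAAT and ATTAAC with 1 free base between them (HNF1, 0.00913%) or to TTGCGCAA (C/EBP, 0.183%). A match to DR4 or DR1 would overlap the hexamers it is made of.

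Called peaks in the window were more frequent after TCPOBOP chiefly in the female 27 h experiment. There 24 regions had a peak in both TCPOBOP pools and 9 in both vehicle pools. For the male 27 h experiment both numbers were 10. The 3 h experiments gave 12 and 7 for males and 7 and 6 for females, with treatment and depth not separable. Of the window's 48 regions, 29 (60.4%) had a peak in at least 1 TCPOBOP list and in no vehicle list, against 15.2% of all 61240 regions. Among those 29, 18 had peaks only in female 27 h TCPOBOP lists. Vehicle lists alone held 4 (8.33%, against 9.18%), and 15 were found under both treatments. Peaks in both female 27 h TCPOBOP pools and in none of the other 14 lists marked 8 regions (16.7%, against 0.531% of all regions). The window was richer than the genome in regions with a peak in 1 list, 20 of 48 (41.7%, against 18%). It was poorer in regions found in all 16 lists, 5 of 48 (10.4%, against 30.1%). The part of such rarely called regions in the other shares was not tested. Neighbouring regions are not independent, and the shares are descriptions without a test.

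Depth ran from 15679689 to 43618254 tags per library and lists from 29216 to 46281 peaks, and 6 to 34 regions of the window had a peak in a given list. At 3 h the male vehicle pools held 9 and 8 regions and the TCPOBOP pools 18 and 12. The female 3 h vehicle pools held 6 and 6, and the TCPOBOP pools 9 and 9. At 27 h the male pools held 12 and 12 after vehicle and 13 and 17 after TCPOBOP, and the female pools 13 and 9 after vehicle and 27 and 34 after TCPOBOP. Depth differed within experiments, and its part in these counts was not tested. In females at 27 h TCPOBOP pool 1 with 25065722 tags held 27 regions and vehicle pool 1 with 28624325 tags held 13. The deepest library of that experiment, TCPOBOP pool 2 with 30340709 tags, held 34. The shallowest, vehicle pool 2 with 18044366 tags, held 9. At 3 h both TCPOBOP pools were deeper than both vehicle pools in either sex, so that treatment and depth cannot be told apart there by counts of peaks.

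**Figure D1:**
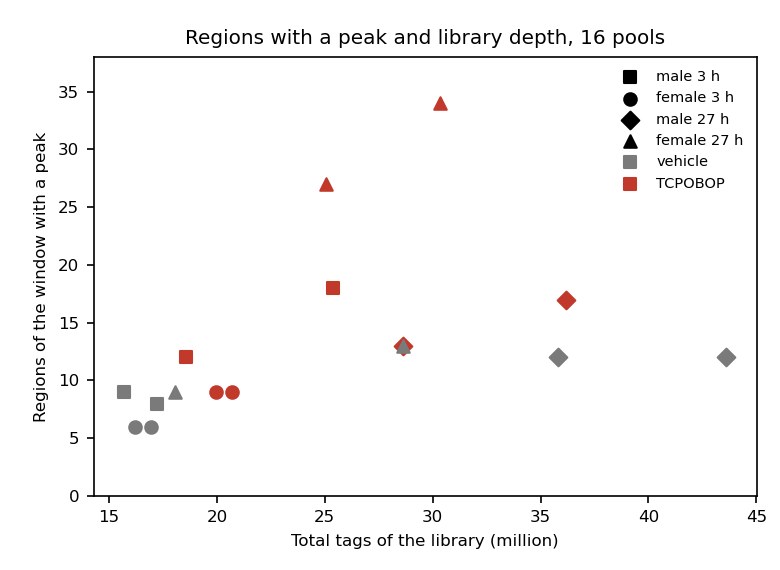
Regions of the window with a peak (vertical axis) against total tags of the library (horizontal axis, in units of 1000000 tags), 1 point per pool, with grey for vehicle and red for TCPOBOP. The female 27 h TCPOBOP pools, with 27 and 34 regions, lie above every other pool, including vehicle pools of greater depth. Within that experiment TCPOBOP pool 2 is the deepest library and vehicle pool 2 the shallowest.

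Signal was measured as the pileup at a peak's summit, the number of extended tags stacked there, per 1000000 tags of the library, called the scaled pileup here. Where a list has no peak the pileup is not known, so a test was made only for regions with a peak in all 4 pools of an experiment. Those were 6, 5, 8 and 9 of the 48 regions in the male 3 h, female 3 h, male 27 h and female 27 h experiments. Changes are log2 differences between TCPOBOP and vehicle pools from a limma fit to all 16 libraries, after each library was centred on its median over the regions found in all lists. P-values were adjusted over all regions of the genome tested in that experiment, and 0.05 was the threshold. In bulk nuclei a rise in the share of cells with an open site and a rise in accessibility per cell cannot be told apart.

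Region 17, at 40162718 to 40163518, had the highest mean scaled pileup of the 4 regions called higher and a peak in every list. In females at 3 h its scaled pileup was 1.30 and 1.29 in the vehicle pools and 2.95 and 3.46 in the TCPOBOP pools. The TCPOBOP pools lay well above vehicle, a log2 rise of 1.29 ± 0.22 (limma adjusted p = 0.00108). Each SE given here is that of the limma fit to all 16 libraries, with 2 pools a group. It was the 1 region of the window called higher in that comparison, in which 1.04% of all tested regions were called higher and 0.0789% lower, and it stayed past the threshold in all 11 alternatives. At 27 h in females vehicle gave 2.38 and 2.05 and TCPOBOP 4.75 and 4.35, again with no overlap. That rise was 0.96 ± 0.21 (limma adjusted p = 0.00458), lost by a small margin without TCPOBOP pool 1 (adjusted p = 0.0548) or vehicle pool 2 (0.0512).

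In males the same site had 2.23 and 1.22 after vehicle and 2.99 and 2.43 after TCPOBOP at 3 h. At 27 h it had 1.93 and 2.29 after vehicle and 3.46 and 4.09 after TCPOBOP. TCPOBOP pools were above vehicle pools at both times, with log2 differences of 0.52 ± 0.22 (limma adjusted p = 0.294) and 0.71 ± 0.21 (adjusted p = 0.0820) that did not pass the threshold. The 27 h difference passed it in 1 of 11 alternatives, with the spread taken from the 4 libraries of that experiment alone (limma adjusted p = 0.0111, and up to 0.580 over the 11). The female change at 3 h exceeded the male one by 0.77 ± 0.31, which did not pass the test of the difference itself (limma adjusted p = 0.373).

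Regions 1 and 2 opened the window, at 40063736 to 40064510 and 40065965 to 40066951. Region 1 had a peak in all 16 lists. In males at 27 h its vehicle pools had a scaled pileup of 0.921 and 1.17 and its TCPOBOP pools 2.48 and 2.38. Females at 27 h had 1.26 and 1.88 after vehicle and 3.67 and 3.10 after TCPOBOP. The groups did not overlap in either sex, and both rises passed the threshold, 1.10 ± 0.26 in males (limma adjusted p = 0.0165) and 1.05 ± 0.26 in females (adjusted p = 0.0106). At 3 h vehicle gave 0.957 and 0.697 against 1.65 and 1.46 after TCPOBOP in males, and 0.944 and 0.802 against 1.35 and 1.90 in females. TCPOBOP pools were again above, by log2 0.74 ± 0.26 and 0.88 ± 0.26, short of the threshold (limma adjusted p = 0.217 and 0.128).

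Region 2 had a peak in TCPOBOP pools alone at 3 h and in every pool, vehicle included, at 27 h. No vehicle pool of either sex had a peak there at 3 h, while the TCPOBOP pools had 1.02 and 0.755 in males and 1.30 and 0.902 in females. The lowest scaled pileup of any peak in the genome in the 3 h vehicle lists was 0.510 and 0.465 in males and 0.472 and 0.493 in females. Among the window's regions the lowest in those lists was 0.829 and 0.697 in males and 0.944 and 0.802 in females. Some TCPOBOP values of region 2 at 3 h were thus below or near the lowest vehicle values of the window. The part of depth in that absence was not tested. At 27 h the male vehicle pools had 0.475 and 0.665 and the TCPOBOP pools 1.85 and 1.74. In females the values were 1.22 and 1.33 after vehicle and 3.71 and 2.50 after TCPOBOP. Both 27 h groups were fully separated, with a rise of 1.55 ± 0.28 in males (limma adjusted p = 0.00121) and 1.17 ± 0.28 in females (adjusted p = 0.00794). The female change at region 2 minus the male change at 27 h was −0.37 ± 0.39 (limma adjusted p = 0.9996). No difference in the change between the sexes was thus resolved.

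Regions 1 and 2 were the 2 regions called higher in males at 27 h, against 1.75% of all tested regions, and no region of the window was called lower (0.439%; 0 also at unadjusted p). Both calls were lost when single pools were left out. Without male vehicle pool 1 the adjusted p was 0.266 for region 1 and 0.0634 for region 2, and without TCPOBOP pool 1 it was 0.281 and 0.0826. With the pileups of a region's peaks summed, region 1 missed the threshold in males at 27 h (limma adjusted p = 0.0592).

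In females at 27 h the call of region 1 was lost without vehicle pool 1 (limma adjusted p = 0.2), TCPOBOP pool 1 (0.118) or TCPOBOP pool 2 (0.0558). That of region 2 was lost without vehicle pool 1 (0.0808) or TCPOBOP pool 1 (0.166).

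Region 15, at 40148240 to 40148620, had the largest change of the tested regions in females at 27 h. Vehicle pools had a scaled pileup of 1.01 and 0.776 and TCPOBOP pools 2.87 and 2.70, well apart. The rise was 1.57 ± 0.26 (limma adjusted p = 0.000240), a 2.97-fold difference that passed the threshold in all 10 alternatives. At 3 h in females it had a called peak in both TCPOBOP pools, at 1.11 and 1.05, and in neither vehicle pool. Male pools at 27 h had 0.810 and 1.01 after vehicle and 1.33 and 1.77 after TCPOBOP, a difference of 0.63 ± 0.26 (limma adjusted p = 0.310). The change in females exceeded that in males by 0.94 ± 0.37 at 27 h, not past the threshold for the difference itself (limma adjusted p = 0.851). At 3 h in males vehicle pool 2 had 0.872 and vehicle pool 1 no peak, and TCPOBOP pools had 1.02 and 0.593, so those groups overlapped.

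Females at 27 h thus had 4 regions called higher, regions 1, 2, 15 and 17, of 9 tested, against 3.71% of all tested regions, and 1 called lower, against 2.95%. Without TCPOBOP pool 1 the number higher was 1, and without vehicle pool 1 it was 2. Among the regions found in all 16 lists, 5 in the window, 2 were called higher and 0 lower. The median log2 change was 0.27 over the 9 regions and −0.05 over all 25502 tested. For males at that time it was 0.40 over 8 regions and −0.01 over all 31915. At 3 h it was 0.31 over 6 male regions and 0.07 over 5 female ones, against −0.03 over all tested regions in each sex.

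At 3 h in males limma called 0 of the 6 tested regions in either direction (0.642% of all tested regions were called higher and 0.113% lower). At an unadjusted p under 0.05, 3 were higher and 0 lower. They were regions 1, 17 and 46. Region 46 would be called higher without centring (limma adjusted p = 0.0348).

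Many more regions than those called had pools that did not overlap before centring. Both TCPOBOP pools had a higher scaled pileup than both vehicle pools in 4 of 6 tested regions in the male 3 h experiment, where 33% of all tested regions did so, and in no region of the window were both lower (9.24% of all). The female 3 h experiment had 2 of 5 above (16.8% of all) and none below (19.2%). The male 27 h experiment had 7 of 8 above (26.2%) and none below (8.81%), all but region 46. The female 27 h experiment had 4 of 9 above (27.4%) and 1 below (20%), the same 5 regions that were called.

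**Figure D2:**
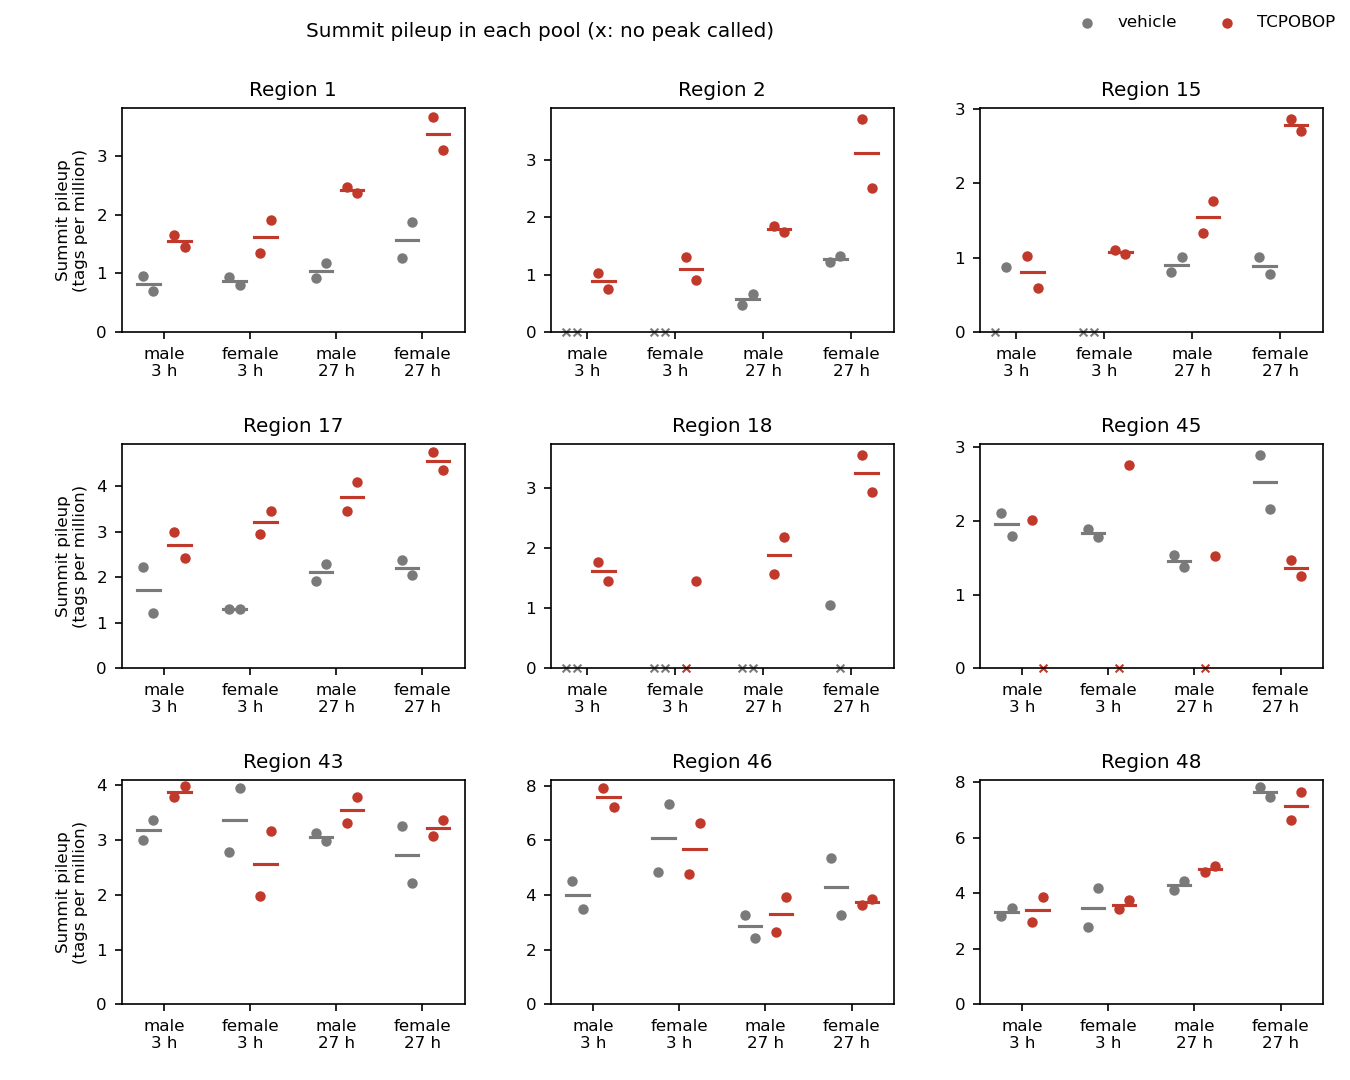
Scaled pileup, in tags per 1000000 tags of the library (vertical axes), in each pool for 9 regions, by experiment (horizontal axes), with points for pools, short lines for the mean where both pools had a peak, and crosses at 0 for pools with no peak called. In regions 1 and 17 every TCPOBOP pool lies above the vehicle pools of its experiment. In region 43 this holds in males at both times, and in region 48 in males at 27 h alone. In the other experiments of regions 43 and 48 the treatments overlap.

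**Figure D3:**
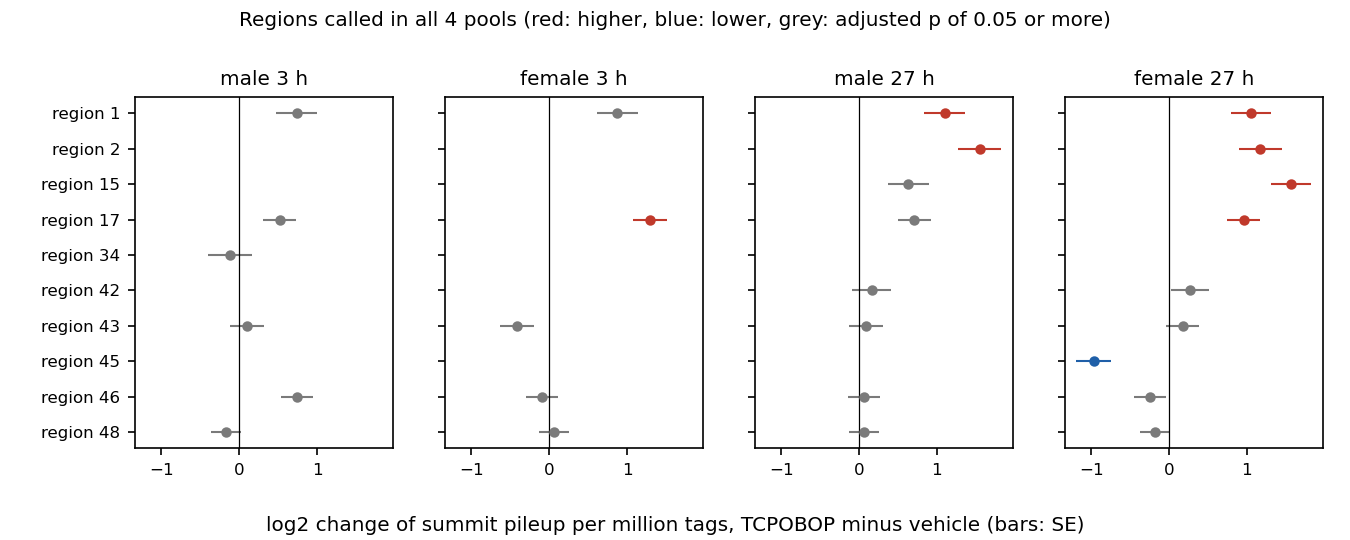
Log2 change of summit pileup, TCPOBOP minus vehicle, with its SE (horizontal axes), for each region of the window with a peak in all 4 pools of an experiment. Calls are red for higher and blue for lower, and they fall at regions 1, 2, 15 and 17 and at region 45.

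Gained and lost regions were counted apart from this test. A region was gained where both TCPOBOP pools and neither vehicle pool of an experiment had a peak, and lost in the reverse case. With 2 pools against 2 no test was made of these counts. In males at 3 h 4 of the 19 regions with any peak in that experiment were gained (21.1%), against 4.93% of all regions, and none was lost (0.474%). Females at 3 h gained 2 of 11 (18.2%, against 4.05%) and lost none (1.01%). At 27 h males gained 2 of 25 (8%, against 2.22%) and lost 1 (4%, against 2.31%). Females at 27 h gained 12 of 37 (32.4%, against 6.04%) and lost none (1.26%). The count lost in 27 h males was 2 without TCPOBOP pool 2 and 3 without either vehicle pool. It was 1 in 3 h males without TCPOBOP pool 1 or vehicle pool 2, and 1 in 3 h females without TCPOBOP pool 2. Over the 4 comparisons 16 regions were gained at least once, of which 13 in 1 comparison, 2 in 2 and 1 in 3.

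The region gained most often was region 5, at 40108899 to 40110360, where no vehicle pool of any experiment had a peak. Its TCPOBOP pools had a scaled pileup of 0.670 and 0.755 in 3 h males, 1.5 and 1.38 in 27 h males, and 2.03 and 1.75 in females at 27 h. In females at 3 h it was seen in TCPOBOP pool 1 alone, at 0.966. The values at 27 h were thus higher than at 3 h in both sexes, though time and experiment cannot be told apart.

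Region 18, at 40163923 to 40164223, lies just beyond region 17 and was gained in males at both times. TCPOBOP pools had 1.77 and 1.46 at 3 h and 1.57 and 2.18 at 27 h, and the male vehicle pools no peak. In females it was seen in TCPOBOP pool 2 at 3 h, at 1.45. At 27 h female vehicle pool 1 had 1.05, pool 2 no peak, and TCPOBOP pools had 3.55 and 2.93. That region was therefore not counted as gained in females, although its TCPOBOP pools were above the 1 vehicle pool with a value. Beside it, region 19, at 40164402 to 40164718, was found in both female 27 h TCPOBOP pools alone, at 1.95 and 1.81. Region 20, at 40165599 to 40165947, was the 1 region lost in any comparison. It had 0.670 and 0.688 in the male 27 h vehicle pools and no peak after TCPOBOP there, but it was also seen in male 3 h vehicle pool 1 at 1.02 and in female 27 h TCPOBOP pool 2 at 1.55.

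**Figure D4:**
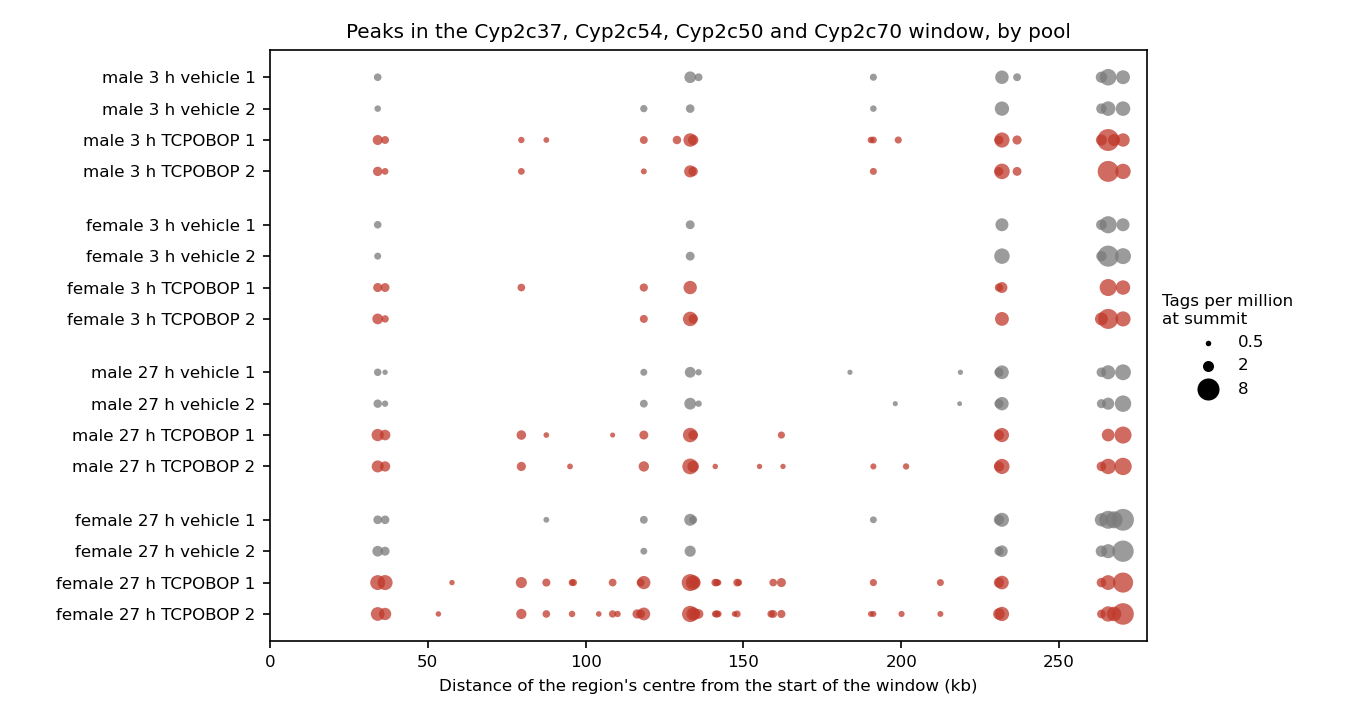
Peaks of the window in the 16 pools, 1 row per pool, against the distance of each region's centre from the start of the window in kb. Dot area is proportional to scaled pileup, grey for vehicle and red for TCPOBOP. The female 27 h TCPOBOP rows hold the added small peaks along the middle of the window, while the dots of regions 43, 46 and 48 at the right end appear in every row.

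Most of what females gained at 27 h was a series of small peaks. The 12 gained regions ran from 40108899 to 40242617, with scaled pileups of 0.593 to 2.03 and fold enrichments of 2.46 to 7.06 over local background, as deposited by the authors. Region 14, at 40147050 to 40147764, had 1.04 and 1.29 in the TCPOBOP pools. Region 30, at 40191872 to 40192159, had 1.36 and 1.09, and 0.838 in male 27 h TCPOBOP pool 1. Region 11, at 40138218 to 40138873, had 0.997 and 0.890, and 0.419 in that same male pool. Regions 11 and 30 were thus also seen in 1 of the male TCPOBOP pools at that time, and in no vehicle pool.

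Region 25, at 40177798 to 40178222, had 0.997 and 0.791, and region 29, at 40189034 to 40189802, had 0.957 and 1.02. A run of neighbours followed, region 21 at 40170900 to 40171223, region 22 at 40171395 to 40171666 and region 23 at 40171851 to 40172240. Their TCPOBOP pools had 0.957 and 0.725, 0.878 and 0.890, and 0.598 and 0.692, and region 21 also had 0.497 in male 27 h TCPOBOP pool 2. The others were region 8, at 40125419 to 40125976 with 0.758 and 0.692, and region 39, at 40242158 to 40242617 with 0.798 and 0.593. With only peaks of −log10 q of at least 5, or with lists cut to equal length, 7 regions were gained in females at 27 h, the same 7 under both: regions 5, 11, 14, 19, 22, 25 and 30. Without female TCPOBOP pool 1 it was 21.

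For males at 3 h the gained regions were 2, 5, 18 and 42. With only peaks of −log10 q of at least 5 they were regions 5, 18 and 44. Region 42, at 40260567 to 40261287, had 1.34 and 1.29 in the male 3 h TCPOBOP pools and 1.11 in female 3 h TCPOBOP pool 1, with no peak in any 3 h vehicle pool. At 27 h it was present everywhere, at 1.40 and 1.38 after vehicle and 1.71 and 1.69 after TCPOBOP in males, and at 1.75 and 1.33 after vehicle and 1.72 and 2.21 after TCPOBOP in females. Those differences, 0.17 ± 0.25 and 0.27 ± 0.25, did not pass the test (limma adjusted p = 0.937 and 0.626). At equal list length region 18 was the 1 region gained in males at 3 h, and without TCPOBOP pool 2 of that group the count was 9. In females at 3 h it was 4 without TCPOBOP pool 2, and in males at 27 h 8 and 5 without TCPOBOP pools 1 and 2.

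Toward the right end of the window lay the sites of highest signal. Region 43, at 40261499 to 40262272, next to region 42, had a peak in all 16 lists, with scaled pileups of 1.98 to 3.99. Its changes were 0.10 ± 0.22 and −0.41 ± 0.22 in males and females at 3 h and 0.09 ± 0.21 and 0.18 ± 0.21 at 27 h (limma adjusted p of 0.495 or more). Region 48, at 40299764 to 40300724, and region 46, at 40295253 to 40295820, had the highest mean pileup of the window and were also present in every list. Region 48 had 7.83 and 7.48 after vehicle and 6.66 and 7.65 after TCPOBOP in females at 27 h, and 2.77 to 4.97 in the other pools. None of its 4 changes passed the threshold, and the largest was −0.18 ± 0.19 (limma adjusted p = 0.678).

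Region 46 varied widely between pools of 1 group. Females at 3 h had 4.84 and 7.34 after vehicle and 4.78 and 6.62 after TCPOBOP, which overlapped. Males at 3 h had 4.53 and 3.49 after vehicle and 7.92 and 7.23 after TCPOBOP. The male TCPOBOP pools lay above, by 0.74 ± 0.21, short of the threshold (limma adjusted p = 0.104). At 27 h the treatments overlapped in both sexes, with changes of 0.07 ± 0.21 in males (limma adjusted p = 0.976) and −0.24 ± 0.21 in females (adjusted p = 0.587).

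Region 45, at 40293153 to 40293658, was the 1 region of the window called lower. In females at 27 h the vehicle pools had 2.90 and 2.16 and the TCPOBOP pools 1.48 and 1.25, with no overlap. The change was −0.96 ± 0.22 (limma adjusted p = 0.00794), lost without vehicle pool 1 (adjusted p = 0.135) or TCPOBOP pool 2 (0.0967). In each of the other experiments 1 TCPOBOP pool had no peak there. The remaining TCPOBOP pool had 2.01 in 3 h males, 2.76 in 3 h females and 1.52 in 27 h males, beside vehicle values of 2.1 and 1.80, 1.89 and 1.79, and 1.54 and 1.38. Region 47, at 40297289 to 40297539, ranked next after regions 48 and 46 by mean scaled pileup over the lists that held it, but only 3 did, male 3 h TCPOBOP pool 1 at 2.40, female 27 h vehicle pool 1 at 4.75 and female 27 h TCPOBOP pool 2 at 3.46. Its fold enrichments, 2.59 to 2.88 in the deposited lists, were among the lower ones of the window.

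Summits lay close together between pools in some regions and were more spread in others. The highest peak's summit in region 15 lay between 40148407 and 40148453 in its 13 lists, in region 18 between 40164074 and 40164106 in 8, and in region 2 between 40066734 and 40066825 in 12. The spread was larger in region 17, with summits from 40163079 to 40163275, than in region 43, from 40261841 to 40261937, each over 16 lists. Region 5, the widest at 1462 bp, had summits from 40109710 to 40110165.

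Changes were set against each other between times and between sexes in the same fit. Of the 5 regions tested in each case between 27 h and 3 h, limma called 0 in males (0.0269% of all tested regions) and 0 in females (0.185%), with 1 and 0 at an unadjusted p under 0.05. Between females and males it called 0 of 5 at 3 h (0.005%) and 0 of 8 at 27 h (0.00826%), with 2 and 1 at an unadjusted p under 0.05. No difference between the sexes or times was thus resolved at any region with values in both. Regions gained in 1 sex alone could not enter this test. At 27 h region 5 was the 1 region gained in both sexes, 50% of the 2 gained in males and 8.33% of the 12 gained in females.

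The remaining regions were weak or seen in few lists. Region 6, at 40117343 to 40117751, had 1.08 and 0.956 in the female 27 h TCPOBOP pools, 0.559 in 1 vehicle pool of that experiment, and 0.552 and 0.524 in 1 male TCPOBOP pool at 3 h and at 27 h. Region 34, at 40220938 to 40221374, was found in 8 lists at 0.593 to 0.838, and its change in males at 3 h was −0.12 ± 0.28 (limma adjusted p = 0.892). Region 44, at 40266520 to 40266840, was found in males at 3 h only, at 1.02 in vehicle pool 1 and at 1.38 and 1.29 after TCPOBOP. Region 33, at 40220209 to 40220547, had 0.709 in male 3 h TCPOBOP pool 1 and 0.560 in female 27 h TCPOBOP pool 2.

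The other 20 regions (41.7%, against 18% of all regions) had a peak in 1 list each. Female 27 h TCPOBOP pool 2 alone held region 3 at 40083246 to 40083445, region 10 at 40134051 to 40134262, region 12 at 40140023 to 40140222, region 13 at 40146162 to 40146446, region 24 at 40177035 to 40177272, region 28 at 40188644 to 40188849 and region 37 at 40229962 to 40230191. Pool 1 of that group alone held region 4 at 40087537 to 40087756, region 9 at 40126023 to 40126222 and region 26 at 40178397 to 40178599. These 10 had scaled pileups of 0.479 to 1.42, the highest being region 13.

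Male 27 h TCPOBOP pool 2 alone held region 7 at 40124946 to 40125150, region 27 at 40184979 to 40185182, region 31 at 40192354 to 40192695 and region 38 at 40231419 to 40231618. Male 3 h TCPOBOP pool 1, the deepest library of its experiment, alone held region 16 at 40158778 to 40159074 and region 36 at 40228933 to 40229146. The 4 regions found in vehicle alone were each in 1 male 27 h pool, region 32 at 40213645 to 40213844 and region 41 at 40248597 to 40248865 in pool 1, and region 35 at 40227996 to 40228211 and region 40 at 40248384 to 40248584 in pool 2. Those pools had 35822318 and 43618254 tags, and the 4 peaks were weak, at 0.390 to 0.447.

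The flanking stretches of the same length differed in how many sites they held. In the 270 kb before the window there were 4 merged regions, and none was gained or lost in any comparison. In the 270 kb after it there were 27, of which region 48 is shared with the window. None of them was gained or lost in males or in females at 3 h, and 1 was gained and 1 lost in females at 27 h, of 21 with a peak (4.76% each). These are counts without a test.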

How the data were processed

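DNase-seq had been run on 16 pools of mouse liver. Per the labels' protocols, fragments of 125 to 400 bp were collected, and the 27 h libraries were used as single reads from read 1. The submitters' processing notes name Bowtie and mm9 for the alignment, and uniquely mapped reads were used, per the file headers. Peaks were called per pool with MACS 2.1.0.20150731 without a control, keeping duplicates, with 50 bp reads shifted by 100 bp and extended to 200 bp, at a q-value of 0.05, per the file headers. In each list 458 to 552 peak numbers are absent, and no source used here gives the filter behind this. Pileup, as the authors deposited it, is a coverage signal, the extended tags at the summit, unscaled for depth. The deposited fold enrichment is the ratio to local background, and −log10 q stands beside it, per the file headers. These describe single peaks and are the authors' own. The second list of the female 27 h TCPOBOP pools carries another experiment's code in its heading, and was assigned by its command line and peak names.

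Peaks were merged and counted with pandas 2.3.3 and numpy 2.4.6 (Python 3.11.15), promoters were aligned with Biopython 1.88, and figures drawn with matplotlib 3.10.9. The highest pileup of a region per list was divided by total tags, put on a log2 scale and fitted with limma 3.58.1 in R 4.3.3 (8 group means, trended prior spread), using the regions with a peak in all 4 pools of the experiment. In other experiments a pool with no peak was missing from that region's fit. The fit was tested on simulated data for the female 27 h experiment, with noise drawn from the fit's own spread. It found 71% of log2 changes of 1 and 100% of log2 changes of 2, with 14 false calls. Smaller changes were not simulated, and such data cannot check the assumptions of the fit. Alternatives for the fit were other centrings, the spread from the 4 libraries of an experiment alone, no trend in the prior spread and summed pileup. Others for it were regions in all 16 lists and a replicate block. Gained and lost regions were recounted with stricter or equally long lists. They were also recounted with 50% overlap for matching peaks between the 4 lists of an experiment, merged alone. In both cases each pool was left out in turn. Each p-value sets a change against the spread between pools of the same group, not between single mice. Regions were described one by one if called, gained, lost or among the 3 highest by mean pileup, and the rest by position. Regions 6, 33, 34, 43 and 44 were given values although that rule does not name them, and this was chosen after their values were seen. The window, lists and tests were chosen with earlier results of these data known.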

Additional observations from a re-analysis of the deposited data

How the results depend on the processing

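Counts of the window's regions were recomputed under each alternative. Without centring, which moved the median change of all regions from −0.03 to 0.15 in males at 3 h and from −0.01 to 0.11 in males at 27 h, 1 region was higher in males at 3 h. With summed pileup 1 was higher in males at 27 h, and among regions in all 16 lists 1 was higher there and, in females at 27 h, 2 higher and 0 lower, since fewer regions are tested. At equal list length 1 region was gained for the male 3 h and 7 for the female 27 h experiment. With −log10 q of at least 5, 7 were gained in the latter. A common floor of scaled pileup was also set, chosen after seeing the data. It was 0.510 and 0.501 for males and females at 3 h and 0.363 and 0.443 at 27 h. The lowest values of the window's regions there were 0.552, 0.802, 0.390 and 0.479. Each floor lay below them, so it could not change the counts of gained and lost regions. Leaving out each pool in turn gave 0 to 2 higher in males at 27 h, 1 to 4 higher and 0 to 1 lower in females at 27 h, 4 to 9 gained and 0 to 1 lost for 3 h males, 2 to 4 gained and 0 to 1 lost in females at 3 h, 2 to 8 gained and 1 to 3 lost in males at 27 h, and 12 to 21 gained in females at 27 h. A left-out pool leaves a group with 1 list, so single-list peaks count as gained or lost, and the lone pool is assumed to vary like the others. Apart from these, causes were not tested. No called change of a region reversed its sign. Equal pool numbers do not mark shared mice, and pools of equal number did not deviate together (r = −0.03, 0.02, 0.06 and −0.03 across regions). The replicate block gave 0, 1, 2 and 4 regions higher and 0, 0, 0 and 1 lower in the male 3 h, female 3 h, male 27 h and female 27 h experiments, as without the block. With the spread from the 4 libraries of the experiment alone, 3 regions were higher in males at 27 h. The lowest scaled pileup of any peak was 0.298 to 0.510 per list, so openness below these values was not measured. Among the window's regions the lowest value per list ran from 0.390 to 0.966.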
